A study of Drosophila melanogaster with 12 samples.

Results

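The Toll and Imd pathways are the main routes by which *Drosophila* answers bacteria and fungi. In the Toll pathway, circulating recognition proteins set off a cascade of serine proteases that cleaves the ligand Spätzle, which binds the receptor Toll and frees the NF-κB factors Dorsal and Dif from their inhibitor Cactus. In the Imd pathway, peptidoglycan recognition proteins act through the adaptor Imd, a caspase and a kinase complex to cleave the NF-κB factor Relish. Both pathways switch on genes of antimicrobial peptides. The Toll pathway also has a role in the ovary, since mothers load its components into the egg, where they set the dorsoventral axis of the embryo. These genes were taken by symbol from a list of 43, of which 42 were in the deposited table among 14303 genes. *AttC* was not in the table and was not analysed here.

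RNA was sequenced from ovaries of 4-day-old females, with 3 libraries from D1 mutants and 3 from D1 heterozygous controls. D1 is a protein that binds satellite DNA. The mutants carried the allele D1Kyoto over D1Bsc666, a deficiency of chromosome arm 3R, while the controls paired D1Kyoto with the balancer TM6C. All 6 libraries came from flies that were also mutant for *chk2*, the gene of a checkpoint kinase, and about 5 pairs of ovaries were pooled in each sample. The value used here is the authors' mean of normalized counts over all libraries, given as 1 number per gene for both genotypes together. It carries no replicate values, so no error, no depth per library and no difference between D1 mutant and control ovaries is given, and a level can come from either genotype or from both. For the same reason this mean, 6038 normalized counts for *D1*, does not show the loss of *D1* by genotype. The authors' own comparison of the genotypes was not used here, so that loss was not checked. The order of 2 genes with close levels cannot be set against their spread. Levels were compared between genes as the authors' mean divided by the exonic length in kilobases, written below as counts per kb.

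The tissue was checked against marker genes. All 6 germline markers were above the median gene in counts per kb, and their authors' means ran between 1957 for *bam* and 36523 for *nos*. The sample label gives germline cells as the cell type, but 4 of 6 markers of the somatic follicle cells were also above the median gene. Their means ran between 43.6 for *slbo* and 141711 for the eggshell gene *Cp36*. Of 6 markers of the ovarian sheath muscle, 4 were above the median gene as well, with means between 255.8 for *Act57B* and 17213 for *Tm1*. The levels are therefore those of dissected ovaries with soma included, and markers of tissues outside the ovary are given further below. In such bulk samples, fewer cells of a type and less RNA per cell cannot be told apart.

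Most genes that act inside the cell, and the receptor gene *Tl*, were listed above the median gene. The 7 listed genes of the protease cascade were all below it, while protease genes of the Toll pathway outside this list, given further below, were not. The authors' mean was at least 10 normalized counts for 37 of the 42 members (88.1%), against 75.1% of all genes, and the 5 members under 10 were all antimicrobial peptide genes. In counts per kb, 21 of the 42 members were above the median gene, which had 215.8. These 21 included all 7 intracellular Imd genes, 5 of 6 intracellular Toll genes and both *Tl* and *spz*. They also included 5 of 12 antimicrobial peptide genes, 1 of 7 recognition genes and *pst*, while 0 of the 7 genes of the protease cascade were among them. Summed over members, the authors' means came to 67940 normalized counts, or 0.149% of the sum over all genes. *cact* and *Tl* together held 49.4% of the members' sum, against 3.02% for the 12 antimicrobial peptide genes, which are short. Of the members' summed counts per kb the shares were 30.6% and 15.8%.

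**Figure D1:**
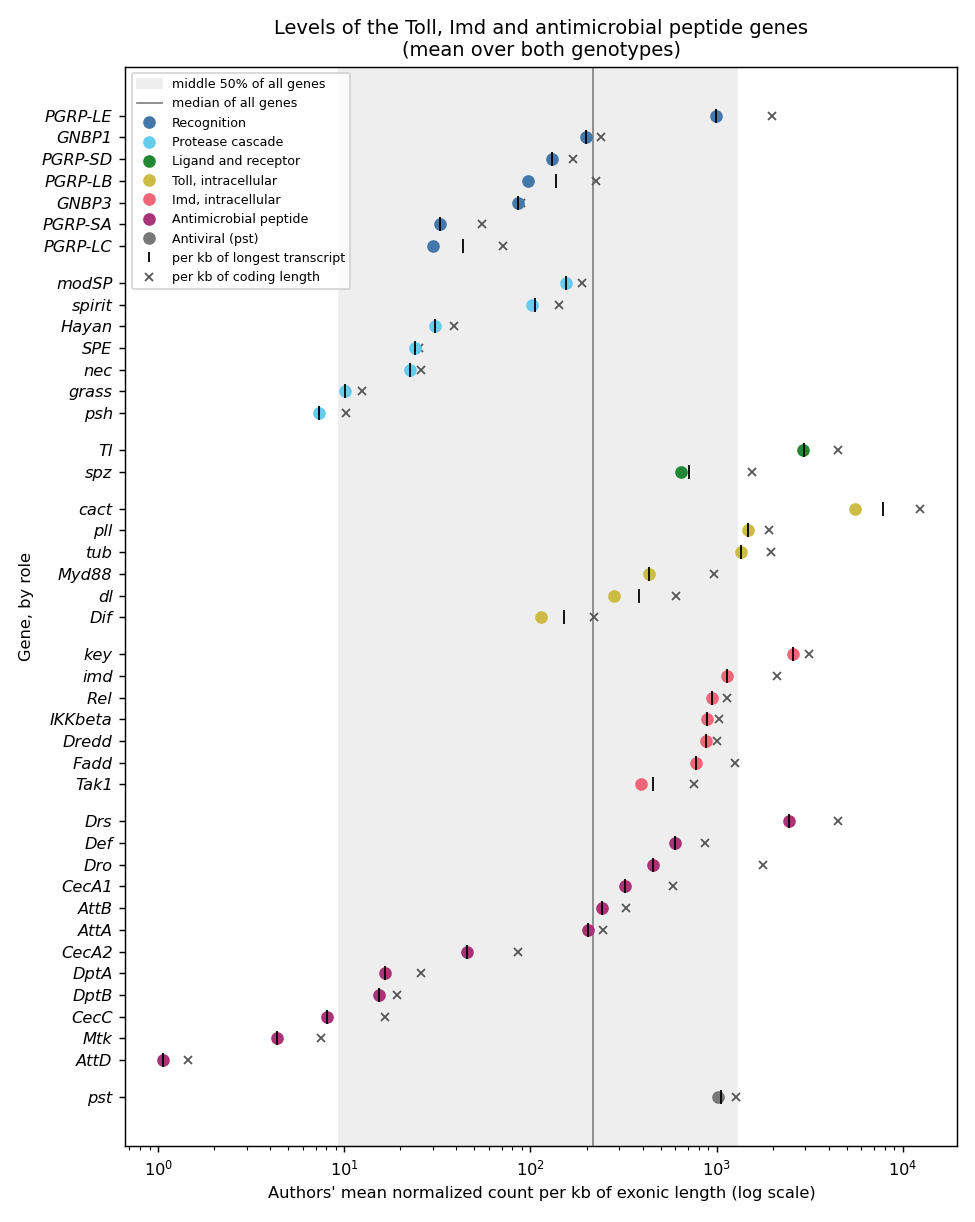
Authors' mean normalized count per kb of exonic length on a log axis for each of the 42 genes, grouped by role, with the same mean per kb of the longest transcript (bars) and of the coding length (crosses); the grey band holds the middle 50% of all genes and the line is their median. The intracellular Imd genes lie between 391.6 and 2587 counts per kb, all to the right of every gene of the protease cascade, and the antimicrobial peptide genes spread between 1.06 and 2449.

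Recognition proteins bind microbial surfaces and stand at the head of both pathways. *PGRP-LE*, an intracellular sensor of bacterial peptidoglycan for the Imd pathway, was the highest of the 7, with a mean of 2062 normalized counts and 994.8 counts per kb, at percentile 70.3 of all genes. *PGRP-LC*, the transmembrane receptor of the same pathway, had a mean of 111.4 normalized counts over 3743 exonic bases, or 29.8 counts per kb. The intracellular sensor was thus listed at 33.4 times the level of the membrane receptor per exonic length, and at 23.0 times per length of the longest transcript. *PGRP-LC* has 10 annotated transcripts, some of which differ in the part that binds peptidoglycan, and the deposited value does not separate them.

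The other recognition genes were below the median gene. *GNBP1*, which works with PGRP-SA on Gram-positive bacteria, had a mean of 353.3 normalized counts and 197.9 counts per kb. *PGRP-SA* itself had a mean of 33.3 and 32.7 counts per kb, a level 6.06 times lower than that of its partner. *PGRP-SD*, a small secreted recognition protein, had a mean of 94.6 and 131.2 counts per kb. *GNBP3*, which binds fungal glucan, had a mean of 130.7 and 85.4 counts per kb. *PGRP-LB*, an amidase that degrades peptidoglycan and so dampens the Imd pathway, had a mean of 172.1 and 97.0 counts per kb. The 5 secreted or amidase members thus lay between percentile 35.9 and percentile 49.2 of all genes.

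The 7 listed genes of the protease cascade had the lowest median of the roles, 24.0 counts per kb. This median does not cover the protease genes of the Toll pathway outside the list. Of those, *ea* had 1996, *ndl* 1099, *snk* 577 and *gd* 378.4 counts per kb, while the protease-like *sphe* had 13.0 and *sphinx2* 0.632. *modSP*, the protease at the head of the listed cascade, was the highest of the 7 genes with a mean of 354.8 normalized counts and 155 counts per kb. *grass*, the protease that follows it, had a mean of 14.0 and 10.1 counts per kb. *SPE*, an enzyme that cleaves Spätzle, had a mean of 30.4 and 24.0 counts per kb. *SPE* shares 107 exonic bases (8.45%) with *CG18754* on the same strand, so some of its reads can be counted on either gene. *spirit*, a clip-domain protease placed upstream of SPE, had a mean of 168.2 and 101.6 counts per kb, the second highest of the cascade. *nec*, the serpin Necrotic that restrains the cascade, had a mean of 36.8 and 22.5 counts per kb.

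*psh* and *Hayan* are neighbouring paralogs on the X chromosome whose proteases respond to microbial proteases. They lie 714 bases apart, with coding sequences identical at 72.5% of aligned bases. *Hayan* had a mean of 74.2 normalized counts and 30.8 counts per kb, while *psh* had a mean of 12.0 and 7.31 counts per kb, the lowest of the cascade. The ratio was 4.22 per exonic length. *Hayan* shares 36.2% of its exonic bases with the antisense gene *asRNA:CR45714*, which had a mean of 48.5, and whether the authors' counting used strand is not given in the sources used here. If strand was not used, reads from that antisense gene can be part of the value of *Hayan*. No window of 150 bases was shared between *psh* and *Hayan*.

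The ligand and its receptor were both above the median gene. *Tl*, which encodes the receptor Toll, had a mean of 15088 normalized counts and 2903 counts per kb, at percentile 89.4 of all genes. *spz*, which encodes Spätzle, had a mean of 1515 and 640.8 counts per kb. The level of *Tl* was 4.53 times that of *spz* per exonic length and 2.91 times per coding length. *spz* in turn was listed at 26.7 times the level of *SPE*, an enzyme that cleaves its product, and at 61.2 times per coding length. *ea*, a protease gene of the same pathway that was not a member, had 1996 counts per kb, above *spz*. *Tl*, *spz*, *grass* and *pll* all lie on chromosome arm 3R between 26799041 and 27253182.

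Inside the cell, the members of the Toll pathway differed widely. *cact*, the IκB inhibitor that holds Dorsal and Dif in the cytoplasm, was the highest of all 42 genes, with a mean of 18495 normalized counts and 5564 counts per kb, at percentile 95.4 of all genes. *pll*, the kinase Pelle, and *tub*, the adaptor Tube, were close, with means of 2865 and 2705 normalized counts and 1484 and 1349 counts per kb. Per coding length *pll* was at 0.977 of the level of *tub*, so their order turned with the length used. *Myd88*, the adaptor that links Toll to Tube and Pelle, had a mean of 1568 and 433.9 counts per kb. The level of *tub* was thus 3.11 times that of *Myd88* per exonic length and 2.01 times per coding length.

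The NF-κB factors that Cactus binds were lower. *dl*, which encodes Dorsal, the factor that patterns the embryo, had a mean of 1817 normalized counts over 6432 exonic bases, or 282.5 counts per kb. *Dif*, the factor that acts in the adult immune response, had a mean of 650.8 over 5695 exonic bases, or 114.3 counts per kb. In counts per kb *Dif* was the only one of the 13 intracellular members below the median gene. By the mean alone, without division, it was at percentile 54.5 of all genes. *dl* and *Dif* lie 3668 bases apart on 2L, and *dl* was listed at 2.47 times the level of *Dif*. *cact* was listed at 19.7 times the level of *dl* and 48.7 times that of *Dif*, and at 20.3 and 56.1 times per coding length. *Rel*, the NF-κB factor of the Imd pathway, had 3.33 times the counts per kb of *dl* and 8.24 times those of *Dif*. Per coding length these ratios were 1.87 and 5.15.

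The 7 listed intracellular genes of the Imd pathway lay within a 6.61-fold range, against a 48.7-fold range for the 6 listed intracellular Toll genes. Both ranges depend on which genes were listed. The top of the Toll range is *cact* at 5564 counts per kb, followed by *pll* at 1484. Other Imd pathway genes outside the list ran between 11.6 and 11950 counts per kb. Of the 7 listed Imd genes *key*, the regulatory subunit of the IκB kinase complex, was the highest. It had a mean of 3676 normalized counts and 2587 counts per kb, at percentile 88.1. *IKKbeta*, the catalytic subunit of the same complex, had a mean of 2217 and 890.9 counts per kb, so that *key* was listed at 2.90 times the level of its partner. *IKKbeta* shares 8.08% of its exonic bases with *lncRNA:CR45212* on the same strand. The adaptor gene *imd* had a mean of 1730 and 1140 counts per kb. *Fadd*, a second adaptor, had a mean of 902.0 and 775.6 counts per kb. *Dredd*, the caspase that cleaves Imd and Relish, had a mean of 1490 and 872.2 counts per kb. *Tak1*, the kinase that activates the complex, was the lowest with a mean of 1543 and 391.6 counts per kb. Even so it lay above every gene of the protease cascade, the highest of which, *modSP*, had 155 counts per kb. Per coding length the values were 758.7 for *Tak1* and 188.3 for *modSP*.

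*Rel* had a mean of 3296 normalized counts and 942.0 counts per kb, at percentile 69.3. It lies on 3R from 9044183 to 9047977 in the BDGP6.54 annotation, 190.1 kb from *D1* (9238083 to 9240654), and was the nearest member to it. The next member on that arm, *PGRP-LB*, lies 2212 kb away. The sources used here do not give the ends of the deficiency that D1 mutants carry, so whether it takes in *Rel* was not tested, and a mean over both genotypes would not show it.

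Antimicrobial peptides are small secreted proteins that kill microbes and are the main output of both pathways. Their genes spread over a 2306-fold range in counts per kb. That range rests on the genes with few reads, since over the 7 with a mean of at least 10 it was 53.5-fold, near the 48.7-fold range of the intracellular Toll genes. *Drs*, which encodes the antifungal peptide Drosomycin, was the highest with a mean of 947.8 normalized counts on 387 exonic bases, or 2449 counts per kb at percentile 87.3. It held 46.2% of the summed means of the 12 genes. *Dro*, for Drosocin, had a mean of 342.5 and 454.2 counts per kb. *Def*, for Defensin, which acts on Gram-positive bacteria, had a mean of 238.7 and 598.4 counts per kb. The order of *Dro* and *Def* depended on the length used, since *Dro* was at 0.759 of the level of *Def* per exonic length and at 2.06 times that level per coding length. *Drs* was listed at 5.39 times the level of *Dro* per exonic length and 2.53 times per coding length.

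**Figure D2:**
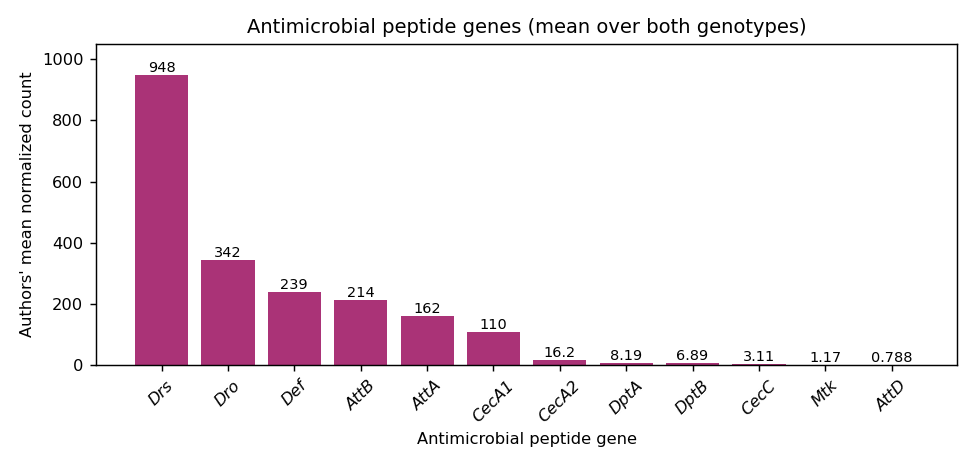
Authors' mean normalized count of the 12 antimicrobial peptide genes on a linear axis from 0, each bar 1 gene and 1 mean over both genotypes. *Drs* stands at 947.8, the next 5 genes lie between 109.8 and 342.5, and the last 6 are at 16.25 or below.

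*Drs* is printed because it was the highest peptide gene of the set, and comes from the RefSeq assembly of release 6. Its coding part spans 3369619 to 3369828 of 3L on the plus strand, in 1 exon of 210 coding bases without the stop codon, with no base in capitals.
Drs: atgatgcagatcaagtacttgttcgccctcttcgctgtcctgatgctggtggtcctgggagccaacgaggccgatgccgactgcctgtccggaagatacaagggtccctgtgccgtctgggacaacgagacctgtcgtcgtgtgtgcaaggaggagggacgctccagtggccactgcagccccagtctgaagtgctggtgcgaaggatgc

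The cecropins are helical peptides against Gram-negative bacteria, and their genes form a cluster on 3R. Their coding sequences are shown because reads from near copies are hard to assign, and because genes this alike had unlike levels. They come from the same assembly, read on the plus strand with the intron left out and without the stop codon. Capitals mark bases that differ from *CecA1* in *CecA2* and *CecC*. The coding part of *CecA1* spans 30210948 to 30211197 of 3R, that of *CecA2* spans 30212238 to 30212484, and that of *CecC* spans 30216577 to 30216834.
CecA1: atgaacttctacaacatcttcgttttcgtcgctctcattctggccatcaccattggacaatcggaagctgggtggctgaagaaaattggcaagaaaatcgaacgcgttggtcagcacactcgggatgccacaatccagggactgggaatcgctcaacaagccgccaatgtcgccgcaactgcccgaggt
CecA2: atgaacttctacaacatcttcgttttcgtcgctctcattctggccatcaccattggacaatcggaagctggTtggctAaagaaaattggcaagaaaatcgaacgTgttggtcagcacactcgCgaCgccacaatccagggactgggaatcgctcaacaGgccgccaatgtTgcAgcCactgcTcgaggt
CecC: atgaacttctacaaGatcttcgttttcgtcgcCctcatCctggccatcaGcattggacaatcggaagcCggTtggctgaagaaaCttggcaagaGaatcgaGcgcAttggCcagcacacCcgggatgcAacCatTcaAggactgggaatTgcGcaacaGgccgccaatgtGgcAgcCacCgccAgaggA

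Over 189 coding bases, *CecA2* differed from *CecA1* at 10 and *CecC* at 25. *CecA1* had a mean of 109.8 normalized counts and 323.8 counts per kb, *CecA2* a mean of 16.25 and 45.8 counts per kb, and *CecC* a mean of 3.11 and 8.05 counts per kb. *CecB*, the cluster gene between *CecA2* and *CecC*, had a mean of 0.825. *CecA1* was thus listed at 7.07 times the level of *CecA2*, 882 bases away, and *CecA2* at 5.69 times the level of *CecC*. How the authors' counting shared reads that map to several copies is not given in the sources used here, so the split between *CecA1* and *CecA2* is uncertain.

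The attacins act on Gram-negative bacteria. *AttA* and *AttB* lie 1007 bases apart on 2R next to *Dro*, and their coding sequences were identical at 95.0% of aligned bases. *AttB* had a mean of 214.1 normalized counts and 243.5 counts per kb, and *AttA* a mean of 161.7 and 204.6 counts per kb. *AttD*, which lies alone on 3R, was identical to *AttA* at 65.7% of aligned coding bases and had a mean of 0.788, the lowest of all members, where 185 of the 14303 genes were at or below it. The diptericins *DptA* and *DptB*, 1130 bases apart on 2R, had means of 8.19 and 6.89 and levels of 16.5 and 15.3 counts per kb. *Mtk*, for the antifungal peptide Metchnikowin, had a mean of 1.17. *Drs* was thus listed at 561 times the level of *Mtk*, the other mainly antifungal peptide of the set. With so few reads for *Mtk*, the size of that ratio is not resolved.

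To see how far copies could share reads, the exonic sequence of each member was searched for in the whole genome. A read here has 150 bases, and for 0 of the 42 members did any exonic window of that length occur a second time in the assembly. With windows of 50 bases, 4 members shared some of their sequence. The shares were 10.8% of the windows of *CecA1* and 10.1% of those of *CecA2*, and 4.05% for *AttA* and 3.58% for *AttB*. Exact matches alone were counted, so reads with an error or a variant, or trimmed reads, are not covered. Windows were cut within single exons, so reads across an exon junction are not covered either. This left few windows of 150 bases for the cecropins, with 41 for *CecA1*, 57 for *CecA2* and 88 for *CecC*. Of the 42 members, 12 overlap the exons of another gene, and for 2 of them, *Hayan* and *DptB*, this took in over 10% of the exonic bases. *DptB* shares 10.7% with *CG43109*, which had a mean of 1.34. Some smaller overlaps on the opposite strand were with genes of higher means. *Dif* shares 4.43% with *CG15141* (mean 3747) and *PGRP-SD* 4.85% with *CG7492* (mean 2588), so their values too can hold reads of those genes if strand was not used.

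*pst* was listed with the immune genes but belongs to neither pathway. It encodes Pastrel, a protein known for resistance to a natural RNA virus of flies. It had a mean of 2683 normalized counts over 2626 exonic bases, or 1022 counts per kb at percentile 70.7, between *imd* and *PGRP-LE* in the order of members.

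Other genes of the same pathways and other immune peptides were read from lists that the members do not share. Of 28 other Toll pathway genes, 25 were in the table, 24 of them with a length, and 12 were above the median gene. The highest counts per kb were those of the Pellino gene *Pli* (2327), and the lowest those of the Toll family receptor *Toll-6* (0.126). The protease genes *ea* (1996), *ndl* (1099), *snk* (577) and *gd* (378.4) were among the 12, unlike the protease cascade of the members. The protease-like genes *sphe* (13.0) and *sphinx2* (0.632) were below the median gene. Of 21 other Imd pathway genes, 20 were in the table and 13 were above the median gene. The highest was *Uev1A*, part of a ubiquitin-conjugating enzyme, with 11950 counts per kb, and the lowest was the amidase gene *PGRP-SC1b* with 11.6. Of 26 other immune peptide genes, 18 were in the table and 1 was above the median gene. This was *BomS2*, a short secreted peptide of the Toll response, with a mean of 129.8 and 353.8 counts per kb, and 11 of the 18 had a mean under 10. The listed antimicrobial peptide genes had a median of 125.2 counts per kb and the other immune peptides 10.5. Both medians were under that of all genes.

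**Figure D3:**
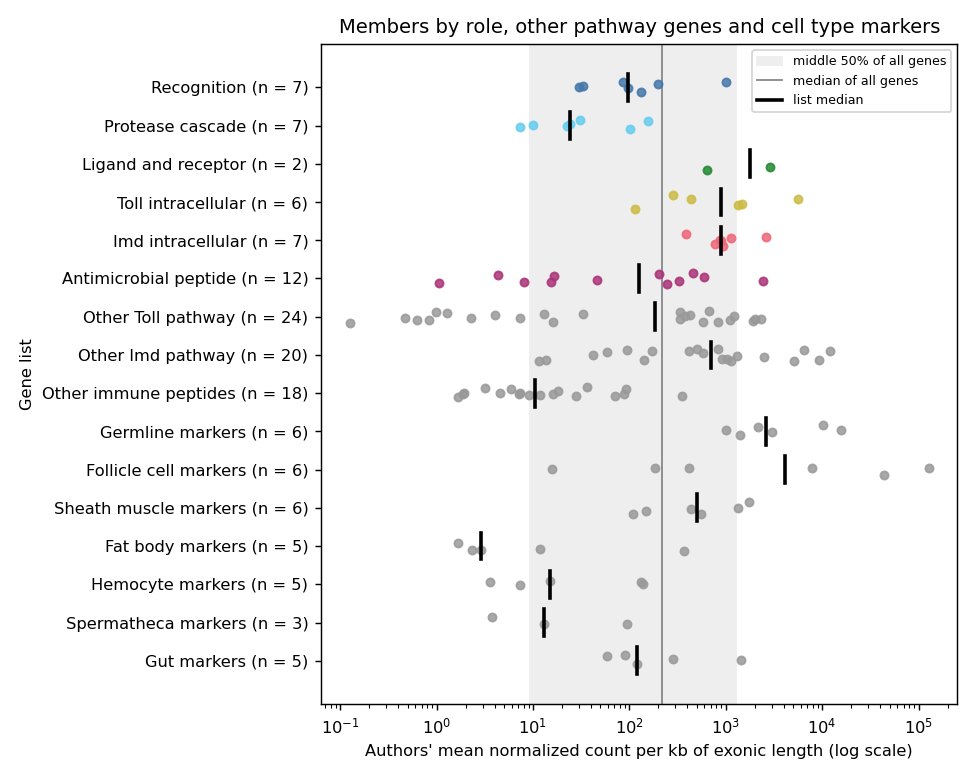
Authors' mean normalized count per kb of exonic length on a log axis for the genes of each list, each point 1 gene with a known length and each black bar the median of the list, with the middle 50% (band) and the median (line) of all genes. The intracellular lists have medians of 891.3 (Toll) and 890.9 (Imd) counts per kb, against 24.0 for the protease cascade and 10.5 for the other immune peptides.

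Antimicrobial peptides and secreted recognition proteins are also made in fat body, hemocytes and epithelia such as the gut and the spermatheca, and markers of these tissues were read in the same way. Of the 5 fat body markers, the lipophorin gene *apolpp* had a mean of 4371 normalized counts, and the other 4 were at 32.7 or below, down to 1.79 for *Fbp2*. Of 6 hemocyte markers 5 were in the table, between 11.7 for *eater* and 834.1 for *Pxn*. The 3 spermatheca markers had means between 10.2 for *Send2* and 82.0 for *Send1*. The 5 gut markers had means between 53.1 for *Jon99Ci* and 1241 for *alphaTry*, a digestive trypsin gene. *alphaTry* had 1443 counts per kb, at percentile 77.6, between the 2449 of *Drs* and the 598.4 of *Def*, the next peptide gene. Above the median gene were 2 of 5 gut markers, 1 of 5 fat body markers, 0 of 5 hemocyte markers and 0 of 3 spermatheca markers. With 1 mean per gene, whether any of these markers moved with the immune genes between libraries was not tested.

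The members lay on all major arms, with 3 on 2L, 11 on 2R, 6 on 3L, 15 on 3R and 7 on X. The share on 3R was 35.7%, against 24.0% of all placed genes, and the share on 2L was 7.14%, against 18.7%. The antimicrobial peptide genes were short, with a median of 424 exonic bases against 1677 for all genes, and their place depended on the division by length. By the mean alone, without division, *Drs* was at percentile 58.3 of all genes, against 87.3 per exonic length.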

How the data were processed

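Ovary RNA was sequenced by the authors as rRNA-depleted paired-end libraries, 3 per genotype. The reads were cleaned with BBTools, aligned to BDGP6.32 with STAR and counted on genes and transposons with TEtranscripts, and DESeq2 1.37.4 (version per the labels) was run by the authors. The deposited table gives 1 signal value per feature, the mean of counts divided by the authors' size factors over all libraries. Its lowest value over genes is 0.618 and 0 features are at exactly 0, so the table starts above a low limit. The table's other columns hold the authors' comparison of the genotypes (log2 fold change, standard error, Wald statistic, p-values and marks) and were not used, which leaves no test and no error. The depth per library is unknown. The small RNA libraries were not analysed here.

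Of 18049 entries, 9 without a name and 1 repeated identifier were left out. Exon lengths and coordinates were read from Ensembl release 115 (BDGP6.54) for 14241 of 14303 genes, matched by FlyBase identifier. It shares the coordinates of release 6 with the RefSeq assembly used for sequences. The mean was divided by the union of exonic bases, and percentiles of counts per kb are the share of genes with a length that lie below. Percentiles by the mean alone are the share of all 14303 genes that lie below. Scripts were run in Python 3.11.15 with pandas 2.3.3 and numpy 2.4.6, and lengths and percentiles were tested on simulated data. Every member was named. Other genes were named only where they were an end of a list, a neighbour or overlapping gene, *D1*, or a protease or protease-like gene of the Toll pathway. The members and lists were chosen with earlier results of these data known. Other lengths, minimums and sets of ranked genes were tried as alternatives.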

Additional observations from a re-analysis of the deposited data

How the results depend on the processing

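The counts of members above the median gene depended on the genes they were ranked among. They also depended on the division by length, most of all for the antimicrobial peptide genes. Among genes with a mean of at least 10, a set that raises the median, 13 members were above it, with 1 of 12 antimicrobial peptide genes and 3 intracellular Toll genes, and the median percentile of the members was 33.8, against 50.3 among all genes. Among protein-coding genes alone, 3 antimicrobial peptide genes were above the median. Without division by length 1 was, *Drs*, and the counts were 18 for all members and 6 for the intracellular Toll genes. All 7 intracellular Imd genes stayed above the median under the longest transcript, the coding length, no division and protein-coding genes, and 6 did among genes with a mean of at least 10. The count of members with a mean of at least 10 was 37, against 41 with a minimum of 1 and 29 with a minimum of 100. Ranking that includes genes at 0 could not be tried, since no gene is listed at 0. All genes here means the genes in the deposited table. No paired analysis was possible because the deposited mean pools all libraries, and no library could be left out for the same reason. Genes with a mean near 1 rest on few reads per library, so their order is not resolved. The shares of summed counts per kb and the range of the peptide genes with a mean of at least 10 were chosen after seeing the data.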
